A study of Mus musculus with 24 samples.

Results

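A set of 150 genes was defined from the control embryos by a fixed ranking, out of 55291 gene rows in the deposited counts. Levels were CPM, the count of a gene scaled to a common library total over all names counted, averaged over the 2 control libraries of a stage. A gene was eligible when its control 8-cell mean was 10 CPM or more and its 2-cell mean was under 2 times its 4-cell mean, which 5721 genes met. Eligible genes were ranked by the log2 ratio of the 8-cell mean to the larger of the 2-cell and 4-cell means, with 1 CPM added to each, and the first 150 were taken as members. The ranking value ran from 2.19 for the first member to 0.55 for the last, a fold of only 1.46, and the first gene left out had 0.54.

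The embryos, labelled BDF2, came from matings of B6D2F1 (BDF1) mice and were injected as zygotes into the male pronucleus with antisense oligonucleotides, synthetic nucleic acid strands that bind a matching RNA and cause it to be cut. MERVL-KD embryos received a mixture of ASOs against the endogenous retrovirus MERVL and control embryos received a scrambled ASO, so both groups carried an injected ASO. Total RNA was sequenced from 2-cell embryos at 1.5 days post coitum and from 4-cell and 8-cell embryos, both labelled 2.5 days post coitum. Each of the 12 libraries pooled 30 embryos whose zona had been removed, with 2 libraries of each condition at each stage, and held between 28167085 and 41482526 counts. All control groups and all MERVL-KD groups came from the same cross, and the labels give neither the sex of the pooled embryos nor a split into inner and outer cells. The paper reports a delay in the development of MERVL-KD embryos, and its authors checked the cleavage stage of sequenced embryos by eye. Whether embryos of one stage were equally advanced in both conditions was not tested.

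In mouse embryos the transcripts laid down in the egg are largely cleared by the late 2-cell stage, when the embryo's own genome takes over. Between the 4-cell and 8-cell stages, transcripts for cell adhesion, for the actin cortex, for metabolism and for the first lineage choices accumulate, and at the 8-cell stage the blastomeres compact. The replication-dependent histone genes, which supply the chromatin of dividing cells in S phase, lie in clusters, and their messengers usually end in a stem-loop instead of a poly(A) tail. The libraries were primed with random hexamers, so RNAs without a tail could be read.

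The members did not begin to be expressed at the 8-cell stage. In 122 of the 150, the control 4-cell mean was already at least 2-fold over the 2-cell mean, in 70 at least 5-fold and in 40 at least 10-fold. The median log2 difference of 4-cell over 2-cell was 1.82, larger than the median ranking value of 0.69 for the later step. Only 21 members had a ranking value of 1 or more, and in 2, Rprl3 and Zfp934, the 2-cell mean was above the 4-cell mean. They are therefore described here as the genes with the highest 8-cell level relative to earlier stages in control embryos. These control values chose the members and are given without a test.

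The choice moved with the library. When the ranking was repeated with control replicate 1 alone, 90 of the 150 genes chosen were members (60.0%), and with control replicate 2 alone, 97 were (64.7%). The 150 genes chosen from replicate 1 had a median control difference of 0.8 between the 8-cell and 4-cell stages on the log2 (CPM + 1) scale in that replicate and of 0.46 in the replicate left aside. Those chosen from replicate 2 had 0.8 and 0.47. A control rise read from the libraries that chose the genes was therefore larger than one read from libraries that did not.

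The summed level of the members in control embryos was 2512 and 2488 CPM in 2-cell, 8934 and 9489 CPM in 4-cell, and 16008 and 16025 CPM in 8-cell libraries. In MERVL-KD embryos the sums were 2434 and 2710 CPM, then 10707 and 10824 CPM, then 12914 and 14867 CPM. The 2-cell sums overlapped between conditions. The MERVL-KD sums lay above both control sums in 4-cell embryos and below both in 8-cell embryos. The control libraries had chosen the members for a high 8-cell level relative to earlier stages. By itself that favours both differences, and the sums are given as a description. In these pooled embryos, fewer cells of a kind and less RNA per cell cannot be told apart.

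**Figure D1:**
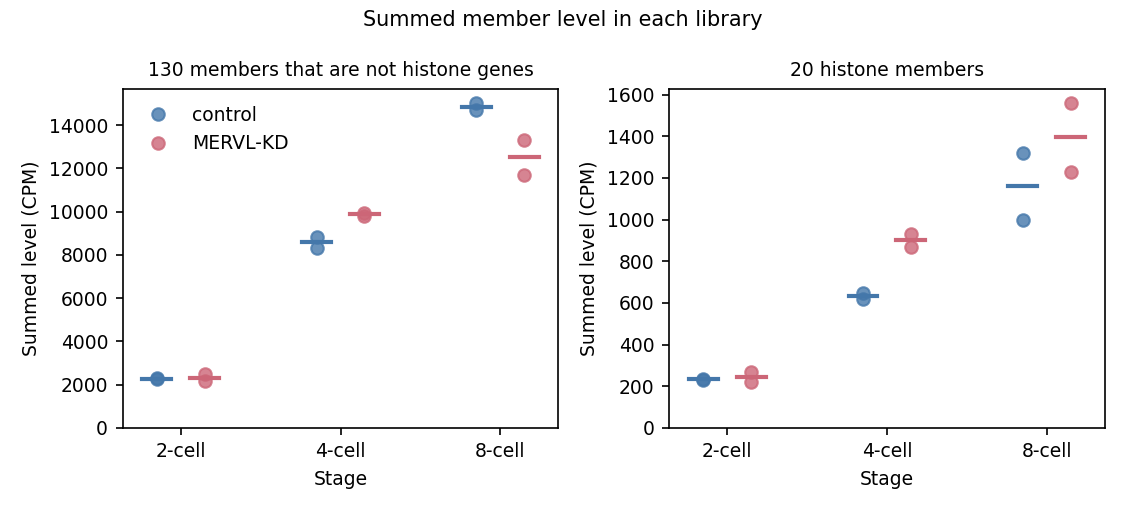
Summed CPM of the 130 members that are not histone genes (left) and of the 20 histone members (right) by stage; each point is a library and each bar the mean of the 2 libraries of a group. At the 8-cell stage the MERVL-KD sums lay below both control sums for the other members, while the histone sums overlapped. The control libraries had chosen the members for a high 8-cell level, which favours lower MERVL-KD sums there.

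MERVL RNA, the target of the knockdown, took 6.33% and 6.57% of the counts of the control 2-cell libraries against 0.157% and 0.143% in MERVL-KD. At the 8-cell stage the shares were 1.07% and 1.08% against 0.0278% in both MERVL-KD libraries. Of 22 markers of cumulus, granulosa and blood cells, between 12 and 19 had a count in a library. The markers summed to between 42.1 and 67.4 CPM in 2-cell, between 94.3 and 137 CPM in 4-cell, and between 82.3 and 112 CPM in 8-cell libraries over both conditions. Pecam1 and Amhr2 gave most of these sums, whereas the blood and cumulus markers Hbb-bs, Hbb-bt and Ptx3 were at 0 in nearly every library. Some other markers were higher in MERVL-KD. In 2-cell embryos 2 of 10 tested passed as higher, where 6.7% of all genes did, and in 4-cell embryos 1 of 9, where 4.92% did. None passed as lower, but both MERVL-KD 2-cell libraries read below both control libraries for Has2 and Hsd3b1. Cd68, a macrophage marker, read 0.596 and 0.581 CPM in control against 7.71 and 4.76 CPM in MERVL-KD 2-cell libraries, and Star, a gene of steroid-producing cells, read 1.76 and 1.89 CPM against 5.15 and 4.66 CPM. Hba-a1, an alpha-globin gene, read 0.317 and 1.46 CPM against 3.97 and 7.71 CPM in 4-cell libraries. The sums of the 2 conditions overlapped at the 8-cell stage. They did not overlap before, with 42.1 and 43.3 CPM in control against 67.4 and 58.5 CPM in MERVL-KD 2-cell libraries, and 94.3 and 106 CPM against 137 and 116 CPM in 4-cell libraries. Pecam1 alone read 18.3 and 18.7 CPM in control against 26.0 and 24.3 CPM in MERVL-KD 2-cell libraries. In 4-cell libraries it read 63.0 and 68.4 CPM against 88.3 and 73.1 CPM. The part of these markers in the results was not tested.

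RefSeq matched 144 of the 150 members by symbol or synonym, and 131 of them are protein-coding. The others include 5 long noncoding RNAs, 4 pseudogenes, Terc (the RNA template of telomerase), Rprl3 (an RNase P RNA), and Gm24924 (a small nuclear RNA). A family that the ranking did not use stood out, namely the replication-dependent core histones, with 20 members, 19 of them on chromosome 13 and H4c14 on chromosome 3. The count files hold 60 such genes, of which 36 were eligible. This grouping was made after the values had been seen. Copies of these genes are nearly identical in sequence and only uniquely aligned reads were counted, so the share of reads given to each copy is uncertain.

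At the head of the ranking stood Gm47283 (chrY:90784738-90816465, GRCm38), which read 18.2 and 27.1 CPM in control 4-cell libraries, 99.5 and 114 CPM in control 8-cell libraries, and 73.7 and 83.8 CPM in MERVL-KD 8-cell libraries. Both MERVL-KD 8-cell libraries lay under both control libraries, with a log2 fold change of -0.56 ± 0.12 (SE) and an adjusted p of 0.0175. The control 8-cell libraries had ranked this gene first, so this comparison, like that of every member, is not independent of the choice. Xist, the X-linked RNA that coats the inactive X chromosome, read 658 and 715 CPM in control 8-cell libraries and 578 and 1530 CPM in MERVL-KD. The MERVL-KD libraries lay on either side of the control pair (log2 fold change 0.51 ± 0.67, adjusted p = 0.791). Gm47283 lies in the pseudoautosomal region, which the X and Y chromosomes share, so its level is not read here as a mark of male embryos. From which of these chromosomes its counted reads came was not tested. Xist depends on how many female embryos were pooled, which the labels do not give.

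Hk2 (chr6:82725025-82774454), the hexokinase that traps glucose in the cell, read 12.5 and 10.9 CPM in control 4-cell, 35.9 and 40.5 CPM in control 8-cell and 21.3 and 32.0 CPM in MERVL-KD 8-cell libraries. The MERVL-KD pair lay below the control pair, but the difference of -0.63 ± 0.19 on the log2 scale did not pass the test (adjusted p = 0.094). Rprl3 was near 0 in single libraries of a group and high in the others. It read 2.77 CPM in control 4-cell replicate 1 against 831 CPM in replicate 2, and 1390 and 1290 CPM in control 8-cell libraries. In MERVL-KD it likewise read 1.8 CPM in one 2-cell library and 491 CPM in the other.

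The other members among the first 10 were Perp, H4c14, Gm42047, H2bc7, H2bc6 and 4930550L24Rik. Perp and Gm42047 are described below with the 4-cell stage. 4930550L24Rik, an X-linked protein-coding gene, differed about as much within groups as between them, with 8.37 and 17.4 CPM in control 8-cell and 3.36 and 10.6 CPM in MERVL-KD 8-cell libraries. Around the threshold, the last members were Hint1, Edc3, Mov10 and Actr10 and the first genes outside were H2aj, H1f4, H2ac20 and Ptch1. The last member, Actr10, read 13.5 and 13.9 CPM at the 4-cell and 19.1 and 21.9 CPM at the 8-cell stage in control, and the first gene outside, H2aj, read 8.74 and 8.49 CPM and then 13.5 and 12.5 CPM. Across the threshold, then, the profiles hardly differed.

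Whether the members rose in MERVL-KD embryos was tested with the 6 MERVL-KD libraries alone, which had no part in choosing them. Between the 2-cell and 8-cell stages, 140 of the 150 members rose at least 2-fold with an adjusted p under 0.05 and none fell, where 23.8% of the 22482 genes tested rose. Their median log2 fold change was 2.85, against -0.16 over all genes tested. Almost the whole set was thus strongly higher in MERVL-KD 8-cell than in MERVL-KD 2-cell embryos. All 20 histone members were among those that rose.

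The step from 4-cell to 8-cell was smaller. In MERVL-KD embryos 11 of 150 members (7.33%) rose at least 2-fold, where 0.191% of all genes tested did, and 27 rose at an adjusted p under 0.05 with no fold threshold, where 1.01% did. None fell. The median log2 fold change was 0.45 over the members and -0.04 over all genes, and 127 of 150 members had a positive value. In 79 members both MERVL-KD 8-cell libraries lay above both MERVL-KD 4-cell libraries, as they did in 14.4% of all genes. This count rested on MERVL-KD 8-cell replicate 2. Without that library 0 members passed with the 2-fold threshold in edgeR and 2 without it, where 59 genes in all rose, and the members' median was 0.28. Without MERVL-KD 8-cell replicate 1, 25 passed and the median was 0.55, and without MERVL-KD 4-cell replicate 2, 6 passed.

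**Figure D2:**
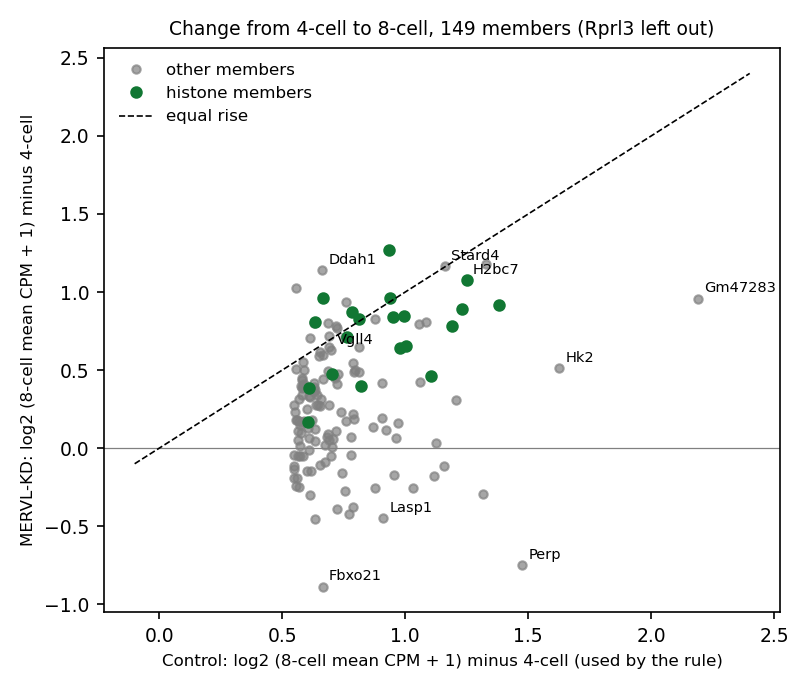
Change from the 4-cell to the 8-cell stage on the log2 (mean CPM + 1) scale in control (horizontal, which the ranking used) and in MERVL-KD (vertical) for 149 members, with Rprl3 left out; the dashed line marks equal changes. The 20 histone members all lie above 0 in MERVL-KD, and Perp, Lasp1 and Fbxo21 lie below 0.

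Histones made up a large part of the members that rose in MERVL-KD embryos between 4-cell and 8-cell. Of the 27 that passed without a fold threshold, 12 were histone members, and of the 11 that passed with it, 7 were. All 20 histone members had a positive log2 fold change, from 0.3 to 1.49 with a median of 0.99, and this held under every scaling of the libraries that was tried and without any one library. The other 130 members had a median of 0.33. Of all 60 core histone genes 52 could be tested, and 18 of them rose with no fold threshold, where 1.01% of all genes did. These 18 include the 12 histone members just counted. None of the 52 fell, where 367 of the 22482 genes tested did.

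H2bc7, which encodes histone H2B, read 13.1 and 14.1 CPM in MERVL-KD 4-cell and 25.7 and 33.9 CPM in MERVL-KD 8-cell libraries. The 2 stages did not overlap, and the log2 fold change was 1.27 ± 0.21 with an adjusted p of 0.011, a call lost without MERVL-KD 8-cell replicate 2. H2bc4, another H2B gene, read 126 and 105 CPM and then 178 and 200 CPM (log2 fold change 0.85 ± 0.12, adjusted p = 0.0056). H2ac8, which encodes histone H2A, read 8.24 and 10.3 CPM and then 18.9 and 28.4 CPM, the highest log2 fold change among the histone members at 1.49 ± 0.33 (adjusted p = 0.0387). H4c14, an H4 gene, read 23.7 and 36.3 CPM and then 45.9 and 69.3 CPM (log2 fold change 1.07 ± 0.25, adjusted p = 0.0452), and it lost its call under 7 of 17 alternatives.

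Set against control, the histone members were not lower in MERVL-KD embryos at the 8-cell stage. Their summed level was 1320 and 1000 CPM in control and 1230 and 1560 CPM in MERVL-KD 8-cell libraries, which overlapped. At the 4-cell stage the sums did not overlap, with 618 and 648 CPM in control and 933 and 870 CPM in MERVL-KD. The control 4-cell libraries entered the ranking, which favours higher MERVL-KD values there, so the 4-cell values are a description. Over all 60 core histone genes, members included, the 4-cell sums were 1350 and 1400 CPM in control and 1940 and 1750 CPM in MERVL-KD. None of the 20 passed edgeR's test in either direction at the 8-cell stage (smallest adjusted p = 0.153), and 7 were higher at the 4-cell stage without a fold threshold, namely H2bc13, H2bc8, H3c11, H4c11, H4c12, H4c4 and Hist1h4n. Hist1h4n, an H4 gene, read 31.0 and 33 CPM in control and 52.4 and 48.4 CPM in MERVL-KD 4-cell libraries. The median log2 fold change of the histone members at the 8-cell stage was 0.19, but it was -0.08 without MERVL-KD 8-cell replicate 2 and -0.03 without control 8-cell replicate 2, so no direction is given for it.

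The regions upstream of some of the 7 histone members that rose at least 2-fold in MERVL-KD embryos are shown because these genes moved together and share sequence. H4c14, H2bc6 and H2ac8 also rose at least 2-fold and are not shown, so the lines are examples. Each line gives the 200 bases before the RefSeq start site in GRCm38.p6, 5′ to 3′ on the gene's strand, with CCAAT and TATAAA on either strand in capitals. H2bc7 (chr13:23574208-23574407) and H2bc15 (chr13:21753876-21754075) encode H2B, and H2ac13 (chr13:21716212-21716411) and H2ac4 (chr13:23750888-23751087) encode H2A. H2bc7 lies on the minus strand and the others on the plus strand.
H2bc7: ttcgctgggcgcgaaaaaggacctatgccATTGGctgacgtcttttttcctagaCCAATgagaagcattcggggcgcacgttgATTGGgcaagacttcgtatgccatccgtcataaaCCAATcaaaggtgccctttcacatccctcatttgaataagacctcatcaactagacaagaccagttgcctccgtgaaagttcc
H2bc15: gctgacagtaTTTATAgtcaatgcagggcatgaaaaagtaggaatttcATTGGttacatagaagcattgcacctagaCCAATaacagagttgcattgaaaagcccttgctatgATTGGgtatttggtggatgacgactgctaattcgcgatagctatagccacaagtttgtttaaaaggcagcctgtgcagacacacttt
H2ac13: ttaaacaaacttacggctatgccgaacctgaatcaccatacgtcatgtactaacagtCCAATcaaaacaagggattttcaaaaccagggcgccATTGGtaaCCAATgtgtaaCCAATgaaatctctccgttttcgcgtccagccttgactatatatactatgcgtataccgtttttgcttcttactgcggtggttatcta
H2ac4: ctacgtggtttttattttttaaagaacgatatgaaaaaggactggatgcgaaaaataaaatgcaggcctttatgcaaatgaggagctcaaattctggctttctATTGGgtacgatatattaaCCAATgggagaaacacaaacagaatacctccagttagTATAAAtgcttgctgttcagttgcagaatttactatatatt

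RefSeq promoter windows, from 250 bases before to 50 bases after a start site, were found by symbol for 109 members. CCAAT, on either strand, was in a window of 14 of 17 histone members (82.4%), of 41.3% of the other members and of 41.1% of all 27025 genes. TATAAA was in 13 of 17 histone members (76.5%), 9.78% of the other members and 15.7% of all genes, and both motifs were in 10 of 17 and in 6.21% of all genes. In only 3 histone members did TATAAA begin 40 to 20 bases before the RefSeq start site, whereas CCAAT lay in the 100 bases before it in 13. Both strands were searched for every motif. A CCAAT can share its end base with a TATAAA, and GGGCGG can overlap GCCNNNGGC. Among the 92 other members with a window, GGGCGG was found in 64.1% (38.2% of all genes), CACCC in 75% (59.8%), GCCNNNGGC in 23.9% (18.5%), CACGTG in 15.2% (8.09%), GGAATG in 16.3% (16.6%) and AAGGTCA in 6.52% (5.38%). The 27025 genes were all those with a window, expressed or not, whereas members had at least 10 CPM in control 8-cell embryos. No set matched for expression was read, so an excess is not taken as particular to the members. These are matches of letters and not sites of binding.

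Of the members that were not histones, 15 rose in MERVL-KD embryos between the 4-cell and 8-cell stages. Ddah1, an enzyme that breaks down methylated arginine, read 12.3 and 12 CPM and then 22.7 and 33.5 CPM (log2 fold change 1.35 ± 0.24, adjusted p = 0.0155). Stard4, a carrier of cholesterol between membranes, read 7.18 and 5.71 CPM and then 9.57 and 21.9 CPM (1.44 ± 0.34 on the log2 scale, adjusted p = 0.0472), with the 2 later libraries far apart. Hspa8, the constitutive Hsc70 chaperone, was the member with the most counts and read 1710 and 1590 CPM and then 2290 and 2110 CPM (0.55 ± 0.085 on the log2 scale, adjusted p = 0.00969). Frrs1l, Gm34059, Isyna1, Calcoco2, Ak4, Galk1, Actn1, Pramel5, Pdp2, Ccdc43, Chmp4c and Gm11800 also rose.

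At the other end, 23 members had a negative log2 fold change from 4-cell to 8-cell in MERVL-KD embryos and none of them passed the test. The 10 lowest were Fbxo21, Perp, Ckmt1, Sema4b, Lasp1, Rpl15-ps6, Epop, Erbb2, Tmem64 and Gm42047, from -0.83 ± 0.28 for Fbxo21 (adjusted p = 0.135) to -0.18 ± 0.16 for Gm42047 (adjusted p = 0.625). Fbxo21, a substrate receptor of a ubiquitin ligase, read 12.7 and 22.6 CPM at the 4-cell stage and 8.58 and 9.64 CPM at the 8-cell stage. The stages did not overlap, yet the 4-cell libraries differed widely from each other.

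MERVL-KD embryos were then compared with control embryos at the 8-cell stage. The control libraries of this comparison also chose the members for a high 8-cell level, which by itself favours lower values in the other group, so counts are given as a description. The p-values of single members, here and in 4-cell embryos, are likewise not independent of that choice. At least 2-fold, 9 of 150 members (6.0%) were lower, where 1.06% of 18414 genes tested were, and 0 were higher in edgeR (7 had an unadjusted p under 0.05 in that direction, and DESeq2 also called 0). Without a fold threshold 37 were lower (24.7%), where 3.56% of all genes were, and 1 was higher, Gm11800, where 1.5% were. The median log2 fold change was -0.3 over the members and 0.01 over all genes. In 71 members both MERVL-KD libraries lay below both control libraries, as they did in 16.7% of all genes. Scaling by library size alone moved the median of all genes to 0.13 and that of the members to -0.18.

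When the members were rechosen from one control replicate and MERVL-KD was read against the other, the difference was smaller in both directions. The median of MERVL-KD minus control at the 8-cell stage, on the log2 (CPM + 1) scale, was -0.18 with both replicates. It was -0.02 in control replicate 2 for genes chosen from replicate 1 and -0.11 in control replicate 1 for genes chosen from replicate 2. The median rise from 4-cell to 8-cell stayed smaller in MERVL-KD than in the control replicate that had not chosen the genes, at 0.19 against 0.46 and at 0.24 against 0.47. At the 4-cell stage the same rechosen genes had medians of 0.25 and 0.19 higher in MERVL-KD.

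**Figure D3:**
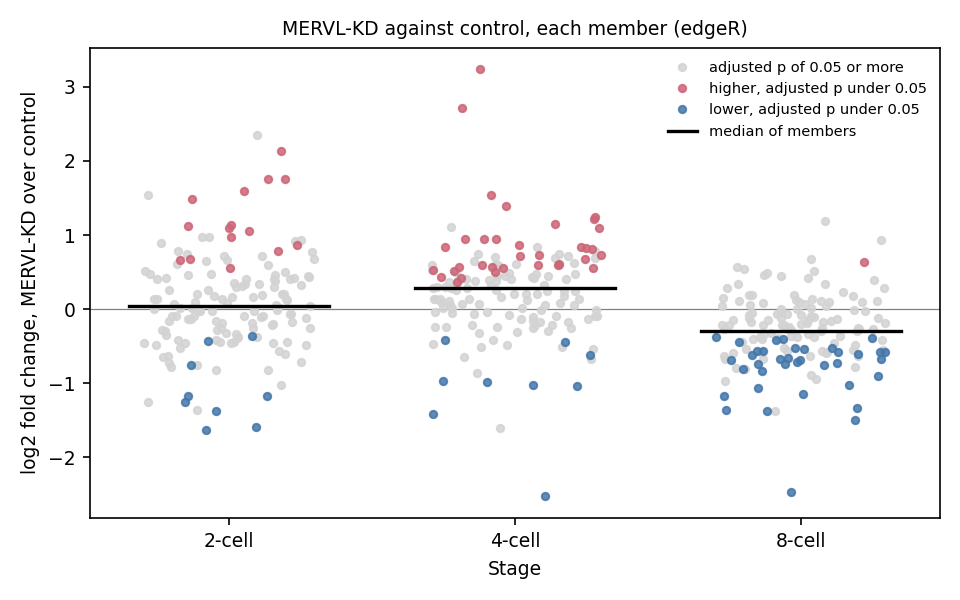
Log2 fold change of MERVL-KD over control for each member by stage, with coloured points where the adjusted p was under 0.05 and a bar at the median. The median was 0.03 for 2-cell, 0.28 for 4-cell and -0.3 for 8-cell embryos.

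Vgll4 (chr6:114860628-114969994), a cofactor that binds the TEAD factors of the Hippo pathway, differed most. In control embryos it read 3.88 and 3.53 CPM at the 2-cell, 12.3 and 8.91 CPM at the 4-cell and 17.6 and 18.0 CPM at the 8-cell stage. In MERVL-KD embryos it read 2.93 and 1.51 CPM, then 2.18 and 1.66 CPM, then 3.71 and 3.3 CPM. Both MERVL-KD 8-cell libraries lay above both MERVL-KD 2-cell libraries, a log2 difference of 0.94 ± 0.41 that did not pass (adjusted p = 0.0634). The log2 fold change was -2.47 ± 0.2 in 8-cell (adjusted p = 1.63e-05), -2.53 ± 0.3 in 4-cell (adjusted p = 0.000266) and -1.02 ± 0.34 in 2-cell embryos, where it did not pass (adjusted p = 0.0597). At the 4-cell and 8-cell stages the call held under all 14 alternatives each.

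Myh10 (chr11:68691559-68816632), the heavy chain of nonmuscle myosin IIB, was lower at every stage. It read 48.7 and 46.6 CPM in control against 18.6 and 19.1 CPM in MERVL-KD 2-cell libraries. It read 86.9 and 84.9 CPM against 51.4 and 40.3 CPM in 4-cell libraries, then 131 and 126 CPM against 55.9 and 69.9 CPM in 8-cell libraries. The groups never overlapped, with log2 fold changes of -1.63 ± 0.13 (adjusted p = 3.67e-07), -0.97 ± 0.12 (adjusted p = 0.000514) and -1.15 ± 0.13 (adjusted p = 0.000357). Calcoco2, a receptor of selective autophagy, and Ak4, a mitochondrial adenylate kinase, were the only other members lower at all 3 stages at an adjusted p under 0.05, where 1.24% of genes tested at every stage were. Ak4 read 36.9 and 37.6 CPM against 17.6 and 12.7 CPM in 2-cell and 137 and 157 CPM against 74.0 and 96.7 CPM in 8-cell libraries.

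Erbb2 (chr11:98412470-98437716), a receptor tyrosine kinase of the EGF receptor family, read 14.4 and 13.1 CPM in control and 6.52 and 5.11 CPM in MERVL-KD 8-cell libraries (log2 fold change -1.38 ± 0.2, adjusted p = 0.00249). At the 2-cell stage it was near the floor, with 0.179 and 0.339 CPM in control and 1.41 and 1.44 CPM in MERVL-KD, and there it was higher (2.13 ± 0.6 on the log2 scale, adjusted p = 0.0255), a call lost under 3 of 13 alternatives. The sign of its difference was thus opposite at the first and last stages. Sync, an intermediate filament protein, read 26.6 and 20.6 CPM against 9.48 and 10.5 CPM at the 8-cell stage (-1.36 ± 0.19, adjusted p = 0.00162). Dclre1c, the nuclease Artemis that trims broken DNA ends, read 34.3 and 28 CPM against 13.8 and 16.3 CPM (-1.17 ± 0.17, adjusted p = 0.00243).

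The lower members also included the mitochondrial enzymes Ckmt1 and Oxct1, but no list of mitochondrial genes was read, so nothing is said of such genes as a group. Ckmt1, a mitochondrial creatine kinase, read 45.9 and 36.6 CPM in control and 11.5 and 20.0 CPM in MERVL-KD 8-cell libraries (log2 fold change -1.5 ± 0.27, adjusted p = 0.0168). Oxct1, which activates ketone bodies for oxidation, read 26.7 and 17.4 CPM against 7.13 and 11.8 CPM (-1.34 ± 0.29, adjusted p = 0.0359). Both calls were lost with the replicate number as a block and without control 8-cell replicate 1, and that of Oxct1 also without MERVL-KD 8-cell replicate 1. Tnrc18 read 265 and 272 CPM against 130 and 149 CPM (-1.07 ± 0.1, adjusted p = 7.15e-05), and Sema4b, a membrane-bound semaphorin, read 21.9 and 31.1 CPM against 11 and 17.0 CPM (-1.03 ± 0.24, adjusted p = 0.0348). None of these groups overlapped.

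The number of lower members depended on the library. Without MERVL-KD 8-cell replicate 1, 5 members were lower at least 2-fold, and Myh10, Tnrc18 and Sema4b were no longer among them. Without MERVL-KD 8-cell replicate 2, 21 were. With no fold threshold, 17 were lower without control 8-cell replicate 1 and 76 without MERVL-KD 8-cell replicate 2. Dclre1c lost its call without control 8-cell replicate 1 and Sema4b without control 8-cell replicate 2, while Vgll4, Sync and Erbb2 kept theirs under all 14 alternatives. Strc overlaps Ckmt1 on the opposite strand, as do Suv39h2 with Dclre1c, Rbbp4 with Sync and Mien1 with Erbb2, and whether the counting used the strand is not given in the sources used here. Sites of the MERVL ASOs with up to 2 mismatches lay on the transcribed strand within 0 of the 150 members and within 0.766% of the genes tested at the 8-cell stage. With up to 4 mismatches, Actn1 and Gm49089 held one each, and none of the 9 lower members did.

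**Figure D4:**
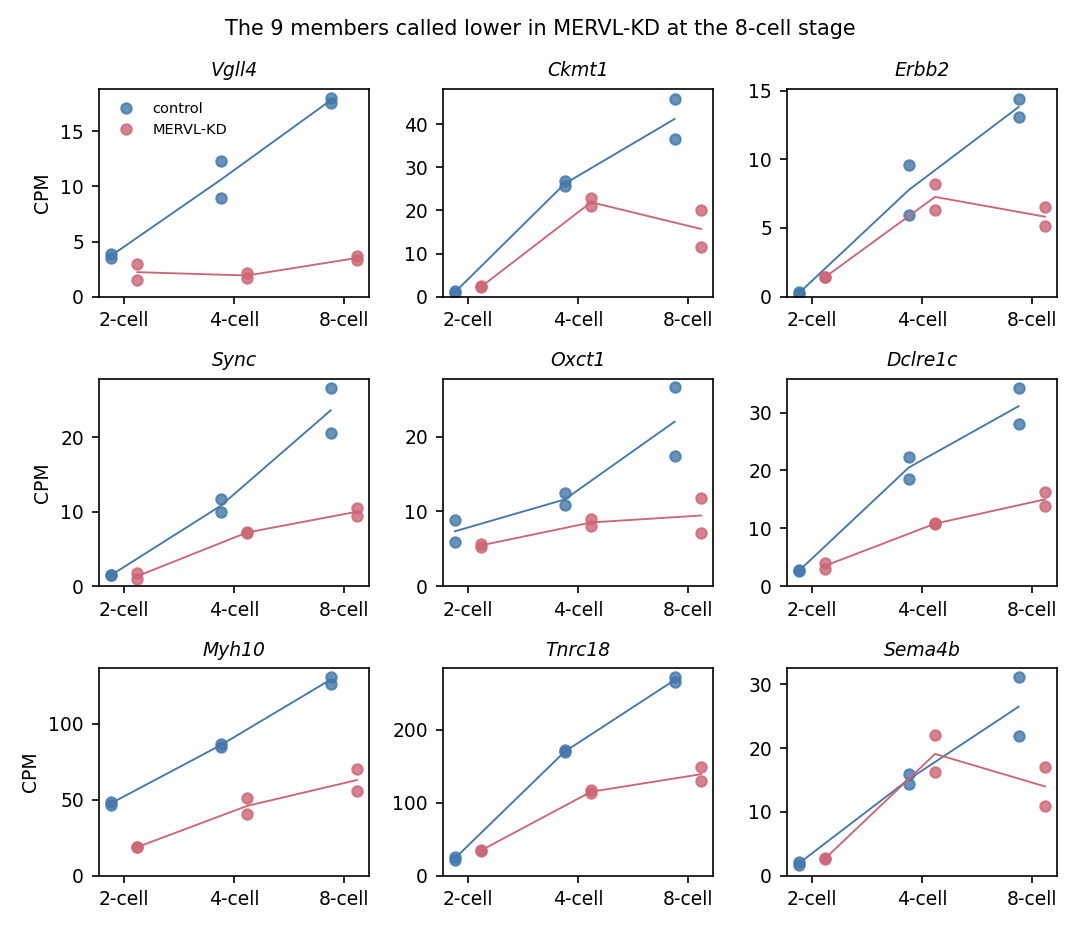
CPM of the 9 members lower in MERVL-KD than in control at the 8-cell stage, by stage; points are libraries and lines join group means. Vgll4 stayed at or below 3.71 CPM in every MERVL-KD library, and Myh10 was lower at all 3 stages.

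At the 4-cell stage more members were higher than lower in MERVL-KD. At least 2-fold, 8 were higher (5.33%, where 2.66% of 19738 genes were) and 4 were lower (2.67%, where 1.88% were). Without a fold threshold, 34 were higher (22.7%), where 4.92% of all genes were, and 9 were lower (6.0%), where 5.84% were. The median log2 fold change was 0.28 over the members and 0.03 over all genes. The control 4-cell libraries also entered the ranking, which favours members with low values there. The higher count was 15 and the lower count 7 without control 4-cell replicate 2, and the higher count was 13 without MERVL-KD 4-cell replicate 1.

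Perp (chr10:18845020-18857073), a p53-inducible protein of desmosomes, was the most changed member at this stage. It read 3.81 and 2.98 CPM in control and 33.2 and 33.9 CPM in MERVL-KD 4-cell libraries, and 10.1 and 12.2 CPM against 17.2 and 21.8 CPM at the 8-cell stage. The log2 fold change was 3.24 ± 0.2 in 4-cell (adjusted p = 2.38e-06) and 0.68 ± 0.19 in 8-cell embryos, where it did not pass (adjusted p = 0.0671). Gm42047 (chr8:121833247-121841178) read 8.08 and 9.23 CPM in control against 56.1 and 62.1 CPM in MERVL-KD at the 4-cell stage (2.71 ± 0.16, adjusted p = 1.92e-06). It was also higher at the 2-cell stage, with 5.76 and 4.21 CPM against 23.3 and 17.4 CPM (1.75 ± 0.21, adjusted p = 3.8e-05).

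Amot, the angiomotin scaffold that acts in Hippo signalling at cell junctions, read 26.2 and 22.5 CPM in control and 67.2 and 41.7 CPM in MERVL-KD 4-cell libraries (log2 fold change 1.09 ± 0.19, adjusted p = 0.00439), a call lost without control 4-cell replicate 2 and without MERVL-KD 4-cell replicate 1. Epop, a partner of Polycomb repressive complex PRC2, read 10.4 and 7.24 CPM against 17.4 and 30.9 CPM (1.39 ± 0.31, adjusted p = 0.0205), a call lost without MERVL-KD 4-cell replicate 2, as was that of Fbxo21. Gm24924 read 17.3 and 14.7 CPM against 39.7 and 39.3 CPM (1.24 ± 0.15, adjusted p = 0.000425). Bhlhb9, Fbxo21 and Ppp2r2c were the other members higher at least 2-fold, and Vgll4, Hapln4, Eprn and Ak4 were lower.

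At the 2-cell stage, when most members were little expressed, 146 could be tested and 9 were higher (where 4.37% of 20604 genes were) and 6 lower (where 2.24% were) at least 2-fold. Without a fold threshold 15 were higher, where 6.7% of all genes were, and 9 were lower, where 7.39% were. Without MERVL-KD 2-cell replicate 1 the balance turned, with 6 higher and 9 lower at least 2-fold and 10 higher and 19 lower with no fold threshold. The median log2 fold change was 0.03 over the members and 0.01 over all genes, and scaling by library size alone moved them to 0.32 and 0.3. Tmub2 read 4.38 and 3.17 CPM in control and 13.6 and 12.2 CPM in MERVL-KD (log2 fold change 1.49 ± 0.22, adjusted p = 0.000269). Nid1, nidogen of the basement membrane, read 1.37 and 1.6 CPM against 5.86 and 5.09 CPM (1.59 ± 0.3, adjusted p = 0.00208). Actn1, the actin crosslinker alpha-actinin, read 19.9 and 29.1 CPM against 11.5 and 15.2 CPM (-1.17 ± 0.2, adjusted p = 0.00118), and lost its call without control 2-cell replicate 2 and without MERVL-KD 2-cell replicate 1.

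The change from 4-cell to 8-cell was compared between conditions as an interaction over all 12 libraries. It was lower in MERVL-KD for 11 members, where it was lower for 0.349% of 24040 genes tested. For 7 it was lower by at least 2-fold, as it was for 0.279% of genes. The control rise had chosen the members, so neither this count nor the value of a single member is independent of the choice, and both are given as a description. Among the 11, only Gata6, Hsf2 and Vnn1 had a positive change within MERVL-KD embryos, and none of the 11 changes there passed the test. Embryos were grouped by cleavage stage, and the delay of MERVL-KD embryos was not taken into account. For Perp the 4-cell to 8-cell change in MERVL-KD minus that in control was -2.56 ± 0.3 on the log2 scale. For Lasp1 (chr11:97799000-97838764), an actin-binding LIM protein, it was -1.43 ± 0.22. Both kept this call under all 21 alternatives. Amot kept it under 10, Tpm4 under 11, Fbxo21 under 9 and Gm42047 under 8. The count with the 2-fold threshold was lowest, at 2, without control 4-cell replicate 2 and highest, at 13, without MERVL-KD 8-cell replicate 2. It was 12 without MERVL-KD 4-cell replicate 1, 3 without MERVL-KD 4-cell replicate 2, control 8-cell replicate 1 or MERVL-KD 8-cell replicate 1, and 4 without control 8-cell replicate 2 or either MERVL-KD 2-cell library.

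Lasp1 read 49.3 and 52.3 CPM at the 4-cell and 95.2 and 97.6 CPM at the 8-cell stage in control, against 86.1 and 73.8 CPM and then 48.1 and 68.7 CPM in MERVL-KD. It was thus higher than control at the 4-cell stage (0.59 ± 0.12, adjusted p = 0.00725) and lower at the 8-cell stage (-0.84 ± 0.17, adjusted p = 0.0233). Gata6, the transcription factor that marks primitive endoderm, read 96.6 and 99.5 CPM and then 188 and 198 CPM in control, against 158 and 132 CPM and then 157 and 167 CPM in MERVL-KD. Tkt, the transketolase of the pentose phosphate pathway, crossed in the same way, from 0.37 ± 0.1 (adjusted p = 0.0419) to -0.45 ± 0.11 (adjusted p = 0.0313). These 3 were the members that were higher at the 4-cell and lower at the 8-cell stage at an adjusted p under 0.05, as were 0.0281% of all genes tested at both. The ranking took genes with a low control 4-cell and a high control 8-cell level, which is the same pattern seen from the control side, so nothing is read from this count.

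**Figure D5:**
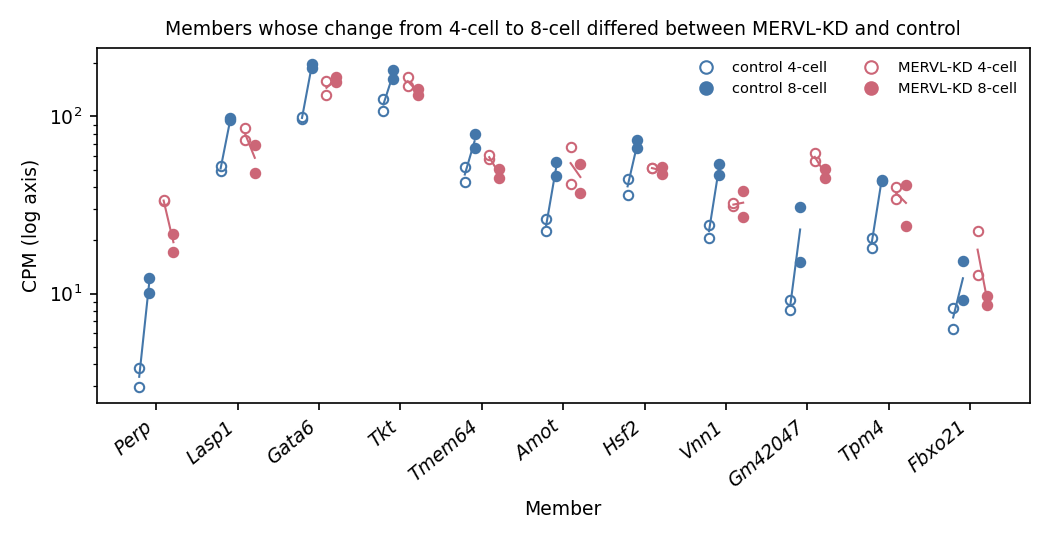
CPM on a log axis in 4-cell (open points) and 8-cell libraries (filled points) in control and MERVL-KD libraries for the 11 members whose change differed between conditions; lines join group means. Perp read 3.81 and 2.98 CPM in control 4-cell libraries and 33.2 and 33.9 CPM in MERVL-KD 4-cell libraries.

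The members were also read against lists of genes by role. Counts on a list stand beside the shares of all genes at an adjusted p under 0.05, which were 4.92% higher and 5.84% lower in 4-cell embryos, and 1.5% higher and 3.56% lower in 8-cell embryos. Of the list of pluripotency and inner cell mass genes, 4 of 33 were members, namely Pou5f1, Tfcp2l1, Tbx3 and Gata6. This list is not of pluripotency factors alone, since it holds markers of primitive endoderm such as Gata6. Pou5f1, which encodes the pluripotency factor OCT4, read 210 and 202 CPM in control and 138 and 142 CPM in MERVL-KD 8-cell libraries (log2 fold change -0.68 ± 0.091, adjusted p = 0.00116). At the 4-cell stage it read 128 and 118 CPM against 119 and 120 CPM, a difference that did not pass (adjusted p = 0.583). Of the 28 genes of this list tested at the 8-cell stage, 10 were lower in MERVL-KD at an adjusted p under 0.05 and none was higher, with a median of -0.27 against 0.01 over all genes. Tbx3 and Tfcp2l1, factors that sustain naive pluripotency, were not among them (-0.3 ± 0.17, adjusted p = 0.405 and -0.16 ± 0.15, adjusted p = 0.627).

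The list of trophectoderm and junction genes held 4 members of 52, namely Cldn4, Perp, Amot and Amotl2. At the 4-cell stage 14 of 48 genes tested were higher in MERVL-KD and 5 were lower at an adjusted p under 0.05, among them Cldn4, a claudin of tight junctions, with 49.5 and 40.7 CPM in control against 70.8 and 69.4 CPM (0.57 ± 0.13, adjusted p = 0.0165). At the 8-cell stage 3 of 46 were higher and 3 lower. Amotl2, a relative of angiomotin, differed between the control 4-cell libraries, with 82.0 and 29.4 CPM, and passed in no comparison with control. In MERVL-KD it read 27.5 and 36.7 CPM at the 4-cell and 43.8 and 69.4 CPM at the 8-cell stage.

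The actin list held 4 members of 36, namely Actg1, Actn1, Tpm4 and Lasp1. Actg1, cytoplasmic gamma-actin, read 149 and 131 CPM in control and 105 and 107 CPM in MERVL-KD 8-cell libraries (-0.53 ± 0.1, adjusted p = 0.0132). Tpm4, a tropomyosin, read 20.7 and 18.0 CPM in control and 34.1 and 39.8 CPM in MERVL-KD 4-cell libraries (0.87 ± 0.16, adjusted p = 0.00592). Of the 34 genes of the list tested at each of these stages, 9 were higher and none lower in 4-cell embryos, while 1 was higher and 3 lower in 8-cell embryos, each at an adjusted p under 0.05.

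Other lists touched the members at 1 gene or none. Glycolysis and glucose uptake held Hk2 alone, and 3 of its 22 genes were higher and 1 lower in MERVL-KD at the 8-cell stage. Metal and redox defence held Prdx6, a peroxiredoxin, which read 53.3 and 48.3 CPM in control against 36.8 and 37.5 CPM in MERVL-KD 8-cell libraries (-0.58 ± 0.12, adjusted p = 0.0214), and 3 of 25 tested genes were higher and 4 lower. Basement membrane and matrix held Nid1, with 1 of 23 higher and 1 lower. Growth factor signalling held Erbb2, with 0 of 35 higher and 3 lower. The p53 targets held Perp, with 11 of 33 higher and 1 lower in 8-cell embryos, against 22 of 34 higher and 2 lower in 4-cell embryos. Lipid transport and sterol synthesis held no member, with 2 of 35 higher and 1 lower, and of the somatic markers none of the 8 tested at the 8-cell stage passed in either direction, and Hba-a1 alone of 9 was higher in 4-cell embryos.

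Among the members with the most counts in control 8-cell libraries, which is not a ranking per length, Hspa8 read 2870 and 2900 CPM in control and 2290 and 2110 CPM in MERVL-KD (log2 fold change -0.52 ± 0.066, adjusted p = 0.000901). Calcoco2 read 868 and 950 CPM against 661 and 666 CPM (-0.58 ± 0.076, adjusted p = 0.00108). Isyna1, which makes inositol phosphate from glucose 6-phosphate, read 704 and 749 CPM against 644 and 731 CPM and did not pass (adjusted p = 0.252). Hspa8 and Calcoco2, with Ak4, Galk1 and Pramel5, were the 5 members that rose in MERVL-KD between the 4-cell and 8-cell stages and were still lower than control at the 8-cell stage, where 0.28% of all genes were. The control 8-cell libraries had chosen the members, and nothing is read from this count. In 71 of the 150 members no comparison with control passed at any stage, where none did in 76.9% of the genes tested at the 8-cell stage, Hk2, Xist, Terc, Tbx3 and Epas1 among them.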

How the data were processed

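RNA-seq data of 12 pooled embryo samples were analysed, 2 per condition and stage, grouped by their labels. ATAC-seq libraries were not analysed here. The authors mapped reads to GRCm38 with STAR 2.5.3a, retained those with a single position, and used featureCounts on GENCODE genes and RepeatMasker families. They deposited raw counts without normalization, for 56326 names including 1035 repeat families. Whether reads or read pairs were counted is not given in the sources used here, and molecules carry no identifiers. P-values rest on the spread between the 2 pooled libraries of a group, combined over the groups of a fit and across genes.

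Tests used edgeR 4.0.16 in R 4.3.3 (filterByExpr, TMM, robust quasi-likelihood), with Benjamini-Hochberg adjustment across every gene and repeat family tested. Calls required an adjusted p under 0.05 and, where stated, at least a 2-fold change. The SE after ± is the absolute log2 fold change divided by the square root of edgeR's F statistic. Stages were compared within the 6 MERVL-KD libraries, conditions within the 4 libraries of a stage, and the interaction over all 12. Scripts were tested on simulated data. Alternatives were DESeq2 1.42.0, other scalings, filters and ranking rules, a replicate block, halved counts and each library left out.

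Members, role lists and named genes were chosen with earlier results of these data known. Named were the first 10 members, 4 on each side of the threshold, the 5 with the most counts, called members with the smallest adjusted p, the 10 lowest from 4-cell to 8-cell in MERVL-KD and members on role lists. Histones and further called members were named after their values were seen.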

Additional observations from a re-analysis of the deposited data

Results flagged for a closer look

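For 11 members the change from the 4-cell to the 8-cell stage differed between MERVL-KD and control embryos in edgeR's interaction test, each with a lower value in MERVL-KD. Within MERVL-KD embryos the change was positive for Gata6, Hsf2 and Vnn1 alone, and none of the 11 changes passed there. The MERVL-KD change minus the control change was -2.56 on the log2 scale for Perp, -1.43 for Lasp1, -0.88 for Gata6, -0.82 for Tkt, -1.0 for Tmem64, -1.37 for Amot, -0.9 for Hsf2, -1.18 for Vnn1, -1.79 for Gm42047, -1.4 for Tpm4 and -1.77 for Fbxo21. The control libraries in this test had placed these genes among the members by their rise, so the test is not independent of the choice.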

How the results depend on the processing

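No share or named gene reversed, but 2 directions turned when a library was left out. The median of the histone members against control in 8-cell embryos went from 0.19 to -0.08 without MERVL-KD 8-cell replicate 2 and to -0.03 without control 8-cell replicate 2. The balance in 2-cell embryos went from 9 higher and 6 lower members to 6 and 9 without MERVL-KD 2-cell replicate 1. Of the summary values under alternatives, 162 stayed within 1.5 times the reported value or within the replicate spread and 54 moved. For single named genes 1131 values kept their call and 92 lost it. The cause of these moves was not tested.

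All values here are percent of members called with the 2-fold threshold unless stated. The share that rose from 4-cell to 8-cell in MERVL-KD was 12.7 with DESeq2 size factors, 2.0 with library size alone, 14.0 in DESeq2, 11.3 with a filter of 1 count, 18.0 with no fold threshold, and 12 and 4.0 for the first 75 and 300 genes. With no fold threshold the other shares were 24.7 lower and 0.667 higher against control in 8-cell embryos, then for 4-cell embryos 22.7 higher and 6.0 lower, for 2-cell embryos 10.0 higher, and for the interaction 7.33. With a floor of 5 CPM they were 9.33 lower and 0.667 higher in 8-cell, 9.33 higher in 4-cell and 2.0 lower in 2-cell embryos, and with a floor of 20 CPM 2.67 higher and 0.667 lower in 4-cell embryos. The first 300 genes gave 3.67 lower in 8-cell and 1.67 lower in 4-cell embryos, and the first 75 gave 9.33 higher and 1.33 lower in 2-cell embryos. Library size alone gave 1.33 lower for 4-cell embryos. For 2-cell embryos it gave 10.7 higher and 1.33 lower. Rechoosing members from control replicate 1 gave 1.33 lower in 4-cell and from replicate 2 gave 10.0 higher in 2-cell embryos. The interaction share was 9.33 in DESeq2 and with a filter of 1 count, and 2.0 with gene rows alone. In the control replicate not used, the median control rise was 0.46 and 0.47, and the median 8-cell difference from control was -0.02 for members rechosen from replicate 1 and -0.11 for those from replicate 2.

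Leaving out each library gave 0.0 to 16.7 for the MERVL-KD rise from 4-cell, 88.7 to 94.0 for that from 2-cell, and 1.33 to 8.67 for the interaction. Against control it gave 3.33 to 14.0 lower and 0.0 to 1.33 higher in 8-cell embryos. In 4-cell embryos the ranges were 4.0 to 10.0 higher and 2.67 to 4.67 lower, and in 2-cell embryos 4.0 to 6.0 higher and 3.33 to 6.0 lower. Same-numbered replicates did not deviate together (correlations from -0.06 to 0.02), so the numbers were not read as pairs. With the replicate block, 1.33 of members were higher than control in 8-cell embryos, and the other shares stayed within 1.5 times.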
